A study of Mus musculus with 15 samples.

Results

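The genes described here encode enzymes that make, cleave or carry acyl-CoA: acyl-CoA synthetases, acyl-CoA thioesterases, fatty acid N-acyltransferases, CoA diphosphatases and the acyl-CoA binding protein. They were taken by symbol from a table of one genotype comparison in mouse liver, and 30 of 31 listed genes had a row among its 24965 rows. Acot5 was not analysed here. Acsl6 and Acss1, with means of 4.44 and 4.01 normalized counts in the authors' deposited table, have a p but no adjusted p, which leaves 28 of 13335 tested genes.

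RNA was sequenced from livers of 15 male C57BL/6J mice, all carrying floxed Gata4 alleles (Gata4fl/fl), at 9 weeks of age. At 8 weeks they had been given adeno-associated virus of serotype 8, either AAV8-Tbg-Cre (Gata4LKO, called knockout here) or an empty AAV8 (control), and they were killed 7 days later. Tbg drives Cre in hepatocytes, so that the other cells of the liver keep their floxed alleles, and the control virus carried no Cre. Fasted animals (4 control, 4 knockout) went 12 h without food. Refed animals (4 control, 3 knockout) were given a diet of 69% sucrose and 10% fat for 12 h after a fast of 12 h. All were killed in the same hour of the morning, per the labels. GATA4 is a zinc finger transcription factor.

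A fatty acid enters metabolism only after a synthetase has joined it to coenzyme A. Long-chain (ACSL), medium-chain (ACSM) and short-chain (ACSS) synthetases divide this work by chain length, and thioesterases (ACOT) reverse it by releasing the free acid and coenzyme A. Type I thioesterases arose as a cluster of duplicated genes, are induced by fasting and PPARalpha ligands in liver, and share an ancestor with the N-acyltransferases ACNAT and BAAT, which pass the acyl group to an amino acid. Nudix hydrolases such as NUDT7 and NUDT19 break down coenzyme A and its esters in peroxisomes, and the acyl-CoA binding protein DBI holds acyl-CoA in the cytosol.

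The values are the authors' DESeq2 results: a mean over all libraries in normalized counts (counts divided by library size factors), an estimated log2 fold change, its standard error (SE), a Wald p and an adjusted p. Values of single livers were not analysed here, so the spread between livers enters only through the SE. The header names no groups. Of 312 readings of the table, 2 gave the deposited estimates of 166 genes with a single read within 1e-06 (largest difference 1.36e-09), against 4.37e-05 for the nearest other reading. These are the genotype difference in fasted livers (knockout minus control) and the feeding difference in controls (refed minus fasted), both from a model of all 15 libraries. The first was taken because the result is named for genotype, and every direction here rests on that. Relative size factors lay between 0.912 and 1.11.

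The targeted gene was not lower in livers labelled knockout. Gata4 (chromosome 14, 63198922 to 63271692, mm10) had a log2 fold change of 0.31 ± 0.15 (SE) and an adjusted p of 0.361 in the authors' deposited table (DESeq2 Wald test). Which exons lie between the loxP sites is not stated in the labels, and reads summed over all exons cannot show whether some were lost, so groups are named by their labels. Liver identity was clear from hepatocyte markers, of which 8 of 8 had means of 11952 normalized counts or more in the authors' deposited table, and the highest, albumin (Alb), was the highest of all genes.

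A single acyl-CoA gene, Acnat2, rose in fasted knockout livers, and Acsl3, Acsl4 and Nudt7 fell. In the authors' deposited table Acnat2 stood at 2.44 times its control level, Acsl3 at 53.2%, Acsl4 at 60.3% and Nudt7 at 62.1%. A gene was called at an adjusted p under 0.05 (the authors' DESeq2 Wald test, Benjamini-Hochberg). On that rule 4 of 28 members were called (14.3%), against 292 of 13335 genes in all (2.19%). By direction, 1 was called higher (3.57%, against 0.585% of all genes) and 3 lower (10.7%, against 1.6%). At an unadjusted p under 0.05 there were 10 members (35.7%), against 11.4% of all tested genes. Members were chosen with earlier results of these data known, so these shares are no independent test of the group. The 28 members had a median log2 fold change of 0.04, beside 0.01 over the whole tested set, and the median size of change was 0.19 beside 0.11.

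**Figure D1:**
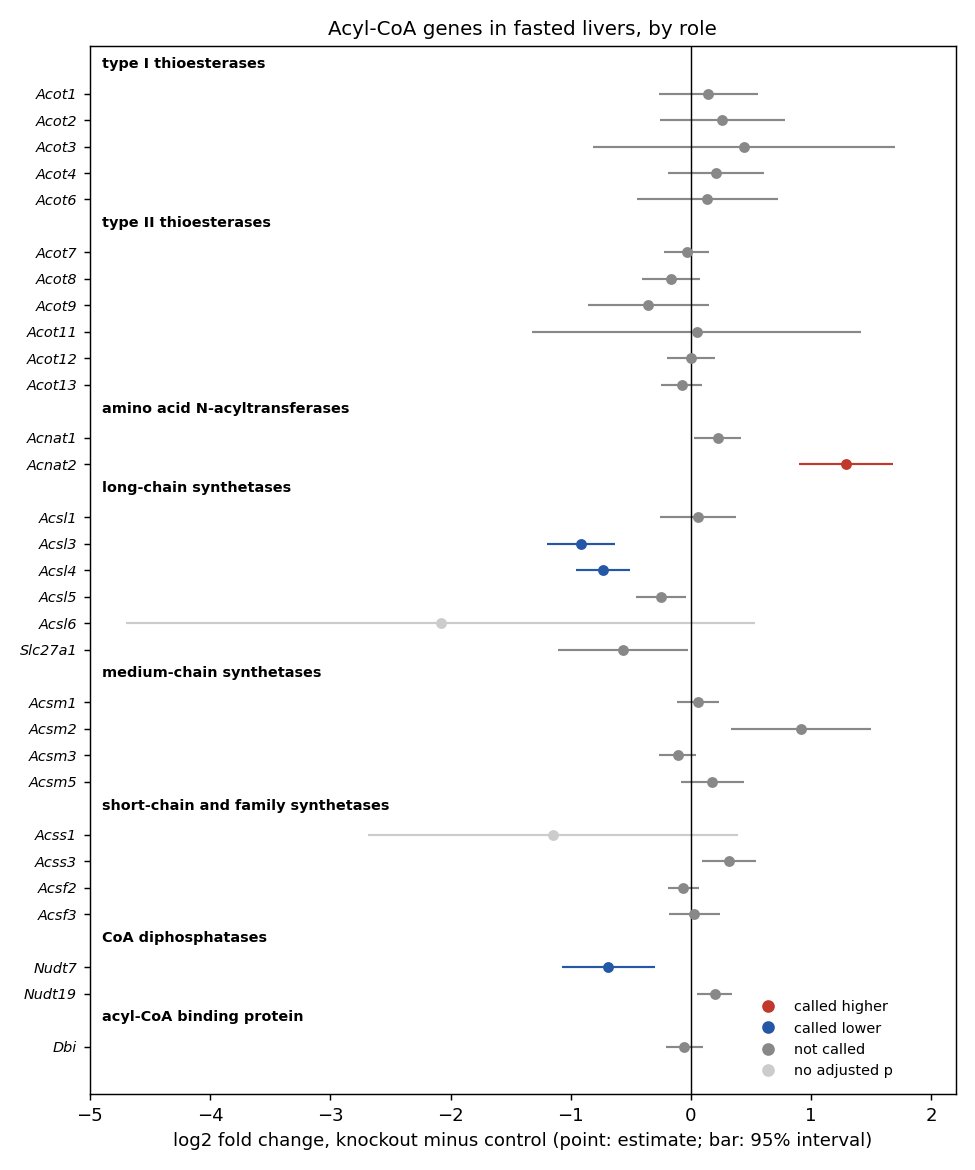
Log2 fold change of each of the 30 acyl-CoA genes with a row, knockout minus control in fasted livers, as point and 95% interval, grouped by role and coloured by call. Acnat2 stands apart on the right at 1.29; Acsl3, Acsl4 and Nudt7 lie on the left between -0.91 and -0.69; the low-count Acsl6 and Acss1 have the widest bars and no adjusted p.

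Promoters of the called genes, and of Acnat1, the close relative of Acnat2 that was not called, are shown because the comparison concerns a transcription factor. Each line gives the 250 bases before the most upstream RefSeq start (GRCm38.p6), read 5′ to 3′ on the strand of the gene. Capitals mark matches to the GATA motif, taken as AGATAA or AGATAG or TGATAA or TGATAG on either strand. The windows are chr4:49408152-49408401 (minus strand) for Acnat2, chr4:49451110-49451359 (minus) for Acnat1, chr1:78657575-78657824 (plus) for Acsl3, chrX:142390536-142390785 (minus) for Acsl4 and chr8:114133324-114133573 (plus) for Nudt7.
Acnat2: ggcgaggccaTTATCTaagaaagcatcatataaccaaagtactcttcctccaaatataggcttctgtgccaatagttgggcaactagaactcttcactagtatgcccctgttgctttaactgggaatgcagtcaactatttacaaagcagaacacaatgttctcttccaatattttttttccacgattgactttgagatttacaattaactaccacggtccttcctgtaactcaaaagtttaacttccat
Acnat1: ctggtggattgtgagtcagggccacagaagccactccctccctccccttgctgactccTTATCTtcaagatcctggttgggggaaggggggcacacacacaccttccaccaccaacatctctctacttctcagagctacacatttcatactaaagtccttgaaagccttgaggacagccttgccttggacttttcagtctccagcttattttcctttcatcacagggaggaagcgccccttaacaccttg
Acsl3: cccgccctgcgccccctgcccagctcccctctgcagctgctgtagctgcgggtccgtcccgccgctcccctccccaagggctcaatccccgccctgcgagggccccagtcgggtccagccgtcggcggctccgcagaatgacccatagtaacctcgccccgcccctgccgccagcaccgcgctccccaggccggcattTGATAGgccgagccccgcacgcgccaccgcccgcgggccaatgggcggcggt
Acsl4: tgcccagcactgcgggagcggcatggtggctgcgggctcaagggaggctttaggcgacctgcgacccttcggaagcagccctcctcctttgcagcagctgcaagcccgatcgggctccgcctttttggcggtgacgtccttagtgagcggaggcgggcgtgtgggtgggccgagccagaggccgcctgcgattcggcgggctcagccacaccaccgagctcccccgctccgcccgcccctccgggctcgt
Nudt7: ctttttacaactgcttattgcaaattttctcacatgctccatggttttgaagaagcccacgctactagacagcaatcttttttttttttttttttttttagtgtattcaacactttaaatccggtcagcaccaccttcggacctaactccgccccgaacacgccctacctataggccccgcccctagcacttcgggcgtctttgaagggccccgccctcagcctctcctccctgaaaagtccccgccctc

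The GATA letters occurred once each in the windows of Acnat2, Acnat1 and Acsl3, at 240, 192 and 52 bases before the start, and not in those of Acsl4 and Nudt7. Among the members 28 of 31 had a RefSeq window, and 9 of these (32.1%) held a match, against 26.6% of 32817 windows in all. Each member gave 1 window, that of its most upstream start, while the 32817 windows cover every distinct RefSeq start. A sterol response motif, TCACNCCAC, and a direct repeat of AGGTCA spaced by 1 base, the motif of PPAR receptors, were also searched on both strands. Neither was found in the members' windows, and they occurred in 1.05% and 0.034% of all windows. A match is a run of letters and does not show binding. The windows of Acnat2 and Acnat1 matched each other at 54.7% of 225 aligned bases. In GENCODE M21 the bounds of Acnat1 (chromosome 4, 49447105 to 49473912, minus strand) extend upstream of its window. The match position of Acnat1 and this identity therefore hold for its RefSeq start only.

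N-acyltransferases. Acnat2 (ENSMUSG00000060317, chromosome 4, 49379840 to 49408151, mm10) averaged 1626 normalized counts in the authors' deposited table. Its log2 fold change there was 1.29 ± 0.20 (SE), with a 95% interval from 0.90 to 1.68 and an adjusted p of 6.87e-08 (DESeq2 Wald test). Acnat1, which conjugates fatty acids with taurine in peroxisomes, averaged 1125 and had an estimate of 0.22 ± 0.10 (SE) on the log2 scale in the authors' deposited table. Its interval ran from 0.03 to 0.42 and its unadjusted p was 0.0260, but the adjusted p of 0.325 did not pass (authors' deposited table, DESeq2). The intervals of the 2 genes do not overlap, and their difference was not tested, because estimates from one model share libraries.

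Acnat1 and Acnat2 are close copies. Their coding sequences are identical at 96.2% of 1248 aligned bases (GENCODE M21), and 35.1% of all 50-base stretches of the Acnat1 transcript occur unchanged in that of Acnat2 (31.5% the other way). Reads from such stretches cannot be assigned by sequence, so both values are uncertain to that extent. The next gene on the chromosome, Baat, which conjugates bile acids with taurine or glycine and is no member of the list, shares 0 such stretches with either. Baat fell, with a log2 fold change of -0.55 ± 0.10 (SE) and an adjusted p of 6.49e-06 in the authors' deposited table (DESeq2). Acnat2 and Baat, with Acnat1 between them, were called in opposite directions. The call of Baat was lost with a t distribution on 11 degrees of freedom (adjusted p 0.0507, range 4.80e-06 to 0.0507 over the alternatives), while Acnat2 kept its call there.

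**Figure D2:**
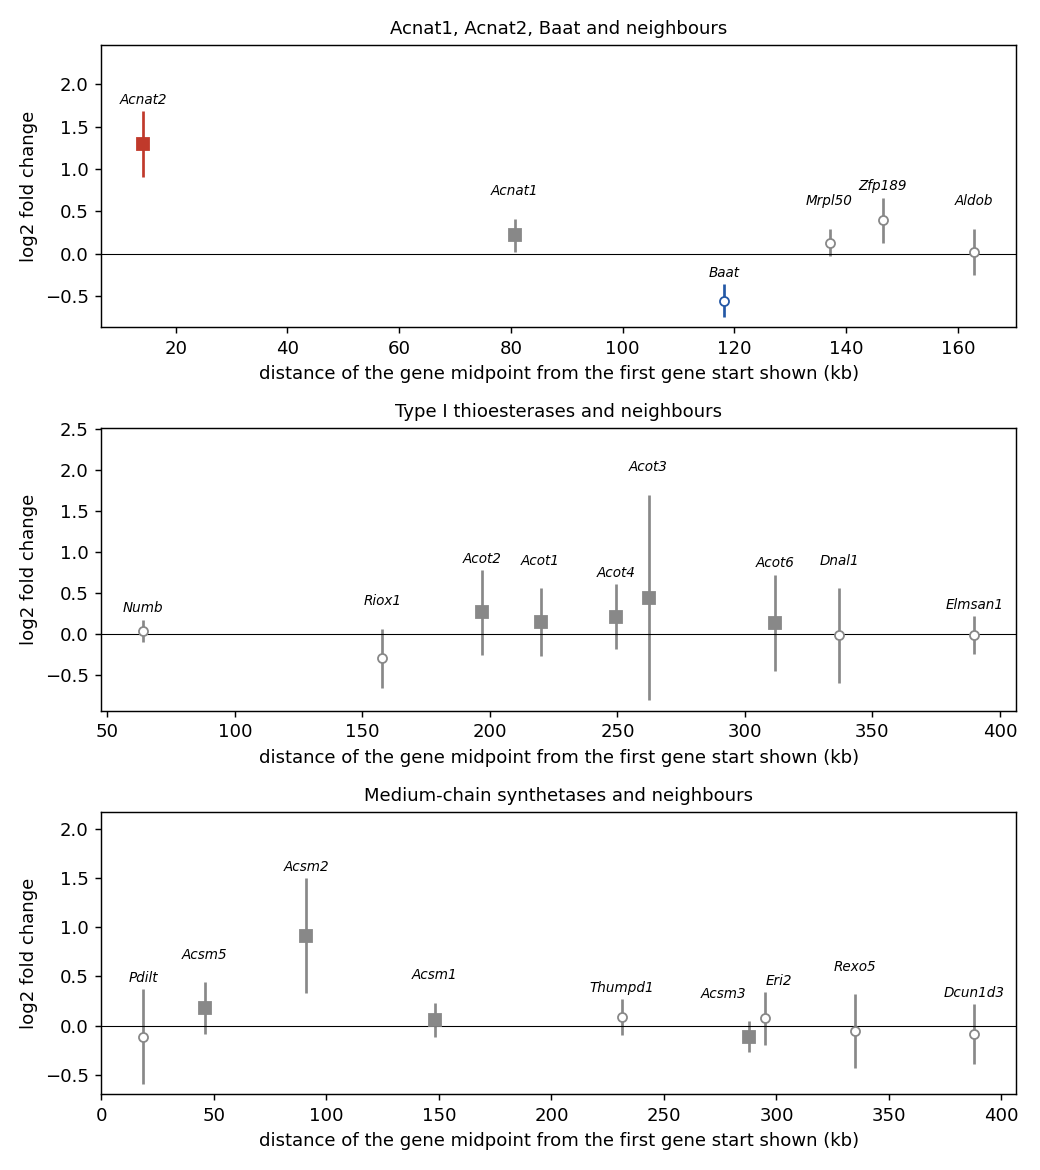
Log2 fold change (knockout minus control, fasted livers) with 95% interval against distance along the chromosome for tested protein-coding genes of 3 clusters; squares are acyl-CoA genes of the list, open circles other genes, red called higher, blue called lower, grey not called. Acnat2 at 1.29 and Baat at -0.55 are the called genes of the top panel; no gene of the thioesterase or medium-chain synthetase clusters was called.

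Long-chain synthetases. Acsl3, an enzyme of the endoplasmic reticulum and of growing lipid droplets, fell (ENSMUSG00000032883, chromosome 1, 78657825 to 78707743, mm10). At a mean of 527.7 normalized counts, its log2 fold change was -0.91 ± 0.14 (SE), interval -1.19 to -0.63, adjusted p 1.77e-07, in the authors' deposited table (DESeq2). Acsl4, which prefers arachidonate and other polyunsaturated fatty acids, also fell (ENSMUSG00000031278, chromosome X, 142317993 to 142390535). The authors' deposited table gives it a mean of 1519 and a log2 fold change of -0.73 ± 0.12 (SE), interval -0.96 to -0.50, with an adjusted p of 1.76e-07 (DESeq2). Coding sequences of these 2 genes are more alike (67.7% identity) than either is to Acsl1, Acsl5 or Acsl6 (58.1% to 59.9%). No 50-base stretch is shared by any pair of the 5 Acsl genes.

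The abundant long-chain synthetases were not called. Acsl1, which supplies acyl-CoA for oxidation and lipid synthesis in hepatocytes, averaged 41378 normalized counts and had an estimate of 0.06 ± 0.16 (SE), interval -0.26 to 0.38 and adjusted p 0.955, in the authors' deposited table (DESeq2). Acsl5, found on mitochondria and endoplasmic reticulum, averaged 7512 and stood at -0.25 ± 0.10 (SE), interval -0.45 to -0.05, unadjusted p 0.0167 and adjusted p 0.260 in the authors' deposited table (DESeq2). Slc27a1 encodes FATP1, a transport protein with synthetase activity best known from muscle and fat. Its estimate was -0.57 ± 0.27 (SE) at a mean of 217.1, interval -1.10 to -0.03, with an unadjusted p of 0.0394 and an adjusted p of 0.399 in the authors' deposited table (DESeq2). Acsl6, a brain enzyme, had an estimate of -2.08 ± 1.34 (SE) at a mean of 4.44 in the authors' deposited table, an interval from -4.70 to 0.53 that covers no change. Of 5 tested genes of this role, 2 fell, 0 rose and 3 did not pass (40% called, beside 2.19% of all tested genes). Of the 5 estimates, 4 were negative.

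Utp14b, a retrogene copied from the ribosome biogenesis gene Utp14a, lies within the bounds of Acsl3 on the same strand and was named after its value was seen. Its log2 fold change was -1.41 ± 0.23 (SE), with an adjusted p of 8.15e-07 at a mean of 241.0 in the authors' deposited table (DESeq2). The genes share 244 exon bases, which is 5.60% of the exon bases of Acsl3 and 3.18% of those of Utp14b (GENCODE M21). How reads there were counted is not given in the sources used here, and the part of either gene in the other's value was not tested.

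Bulk liver RNA does not separate fewer cells of a type from less RNA per cell. The estimates of Kupffer cell and macrophage markers were negative for 11 of 11 genes, from -0.50 to -0.04 with a median of -0.27 in the authors' deposited table. By the authors' DESeq2 test 0 of these were called and 1 had an unadjusted p under 0.05. The means of these markers ran from 49.1 to 565.1 normalized counts in the authors' deposited table, so that none was at 0. Acsl3 and Acsl4 moved in the same direction, and the part of these or other cells in their fall was not tested. Of 8 hepatocyte markers, all with positive estimates up to 0.22, 0 were called by that test and 2 had an unadjusted p under 0.05 (authors' deposited table). Of the other marker lists, 1 of 5 red blood cell genes (Alas2, at -0.41 ± 0.12, SE) fell in the authors' deposited table. Cfd, the only 1 of 5 adipocyte genes with an adjusted p, rose by 3.20 ± 0.96 (SE) on the log2 scale (adjusted p 0.0421, authors' deposited table, DESeq2). Its mean of 9.36 was near 8.20, the lowest mean with an adjusted p. Sinusoidal endothelial and stellate markers gave 0 calls among 8 and 7, and an unadjusted p under 0.05 for 3 and 1 of them (authors' deposited table, DESeq2). Endothelial estimates, 5 positive and 3 negative, ran from -0.71 ± 0.33 (SE, Lyve1) to 0.29. Cholangiocyte markers gave 0 calls among 4 tested, and 0 of 5 neutrophil genes had an adjusted p. Cd3e, the only lymphocyte gene with an adjusted p (0.424, DESeq2), stood at -1.10 ± 0.55 (SE) at a mean of 8.44. Over all tested genes 11.4% had an unadjusted p under 0.05 by that test.

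CoA diphosphatases and acyl-CoA binding protein. Nudt7, which cleaves coenzyme A and acyl-CoA in liver peroxisomes, fell (ENSMUSG00000031767, chromosome 8, 114133557 to 114154739, mm10). Its mean was 4384 and its log2 fold change -0.69 ± 0.20 (SE), interval -1.08 to -0.30, with an adjusted p of 0.0297 in the authors' deposited table (DESeq2). This call was the least firm of those made: the adjusted p was 0.0556 with adjustment over every gene with a p and 0.298 with a t distribution on 11 degrees of freedom, within a range of 0.0241 to 0.298 over the alternatives. Nudt19, its relative best known from kidney, averaged 680.9 and had a positive estimate of 0.20 ± 0.07 (SE), interval 0.05 to 0.34, unadjusted p 0.00796 and adjusted p 0.173 in the authors' deposited table (DESeq2). The 95% intervals of these 2 enzymes lie on opposite sides of 0, and the difference was not tested. Dbi averaged 7161 normalized counts, had an estimate of -0.05 ± 0.08 (SE), interval -0.21 to 0.10, and did not pass at an adjusted p of 0.897 in the authors' deposited table (DESeq2).

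Type I thioesterases. Acot1 (cytosolic), Acot2 (mitochondrial) and Acot3, Acot4 and Acot6 (peroxisomal) lie side by side on chromosome 12. None was called: 5 of 5 estimates were positive, from 0.14 to 0.44 with a median of 0.21, and 5 of 5 intervals included 0 in the authors' deposited table. By the authors' DESeq2 test, 0 of 5 had an unadjusted p under 0.05. Acot4, with a mean of 1612, stood at 0.21 ± 0.20 (SE) and Acot1, with a mean of 855.9, at 0.14 ± 0.21 (SE) in the authors' deposited table. Acot3 had the largest estimate of the cluster, 0.44 ± 0.64 (SE) at a mean of 172.6 in the authors' deposited table. Its SE exceeded those of 99.4% of tested genes of similar mean, so that its interval, -0.81 to 1.70, holds changes larger than that of Acnat2. The SE of Acot1, Acot2 and Acot4 were likewise above those of 93.0% to 97.0% of such genes.

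These genes are near copies as well, and the same caution on shared reads holds. Coding sequences of Acot1 and Acot2 are 95.6% identical, with 23.9% of the 50-base stretches of Acot1 found in Acot2. Other pairs of Acot1 to Acot6 ranged from 75.3% to 85.8% identity. A shared rise or fall of the cluster could not be tested from this table.

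Type II thioesterases. These hot-dog fold enzymes, unrelated in sequence to type I, gave 0 calls among 6 by the authors' DESeq2 test and 0 with an unadjusted p under 0.05, and 5 of 6 estimates were negative. Acot12, the cytosolic acetyl-CoA hydrolase of liver, averaged 3322 and had an estimate of -0.00 ± 0.10 (SE), interval -0.20 to 0.20, in the authors' deposited table. Acot13, a long-chain thioesterase that binds phosphatidylcholine transfer protein, was at -0.08 ± 0.09 (SE), interval -0.25 to 0.09, in the authors' deposited table. Acot7, a mainly neural enzyme, at -0.04 ± 0.10 and the peroxisomal Acot8 at -0.17 ± 0.12 (SE) were likewise not called in the authors' deposited table. The mitochondrial Acot9 had an estimate of -0.35 ± 0.26 (SE) at a mean of 45.1 in the authors' deposited table. Acot11, known as Them1 and induced by cold in brown fat, had an estimate of 0.05 with an SE of 0.70 in the authors' deposited table. Its SE exceeded those of 99.6% of tested genes of similar mean, and a change would have had to reach 2.28 on the log2 scale to be called.

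Medium-chain synthetases. These mitochondrial enzymes activate medium-chain fatty acids and aromatic acids such as benzoate, and Acsm5, Acsm2, Acsm1 and Acsm3 lie in this order on chromosome 7. None of the 4 was called. Acsm2 came nearest, with a log2 fold change of 0.91 ± 0.30 (SE), interval 0.33 to 1.5, unadjusted p 0.00217 and adjusted p 0.0763 in the authors' deposited table (DESeq2). Its level was low, with a mean of 31.2 normalized counts in the authors' deposited table, and its adjusted p ranged from 0.0671 to 0.377 over the alternatives. Acsm1 averaged 5204 and stood at 0.06 ± 0.09 (SE), with an adjusted p of 0.904 in the authors' deposited table (DESeq2). The abundant members gave narrow intervals in the authors' deposited table: -0.12 to 0.23 for Acsm1, -0.26 to 0.04 for Acsm3 and -0.09 to 0.44 for Acsm5. Identity among the 4 coding sequences was 62.3% to 65.2%, with no shared 50-base stretch. Flanking genes in the cluster were not called either.

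Short-chain and family synthetases. Acss3, a mitochondrial propionyl-CoA synthetase, averaged 762.7 and had a positive estimate of 0.32 ± 0.11 (SE), interval 0.09 to 0.54, unadjusted p 0.00579 and adjusted p 0.143 in the authors' deposited table (DESeq2). Acsf2, a mitochondrial medium-chain enzyme, averaged 3422 and stood at -0.06 ± 0.06 (SE), interval -0.19 to 0.06, adjusted p 0.817, in the authors' deposited table (DESeq2). Acsf3, the malonyl-CoA synthetase of mitochondria, gave an estimate of 0.03 ± 0.11 (SE) in the authors' deposited table. Acss1, the mitochondrial acetyl-CoA synthetase, had an estimate of -1.15 ± 0.78 (SE) at a mean of 4.01 in the authors' deposited table.

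Levels of the genes were compared per length of exon, as mean normalized counts per kb over all 15 libraries, refed ones included. Exon length was the union over all annotated transcripts (5618 bases for Nudt7, 10483 for Acsl1), not that of the transcripts expressed in liver. The order below therefore depends on the annotation. Dbi was highest at 5036, followed by Acsl1 at 3947, Acsm1 at 2386, Acsl5 at 1544 and Acot12 at 1009 normalized counts per kb. These are 5 of 30 genes at 1000 or more, while 16 lay between 100 and 1000 and 9 under 100. None of the 5 highest was called. Acnat2, at 932.5 per kb, stood above Acnat1 at 528.7, and Nudt7 at 780.4 stood above Nudt19 at 254.1. Acsl4 at 281.0 and Acsl3 at 121.1 per kb were below the main hepatic synthetases Acsl1 and Acsl5. Error of these pooled means is not given, so neighbours in this order cannot be told apart.

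**Figure D3:**
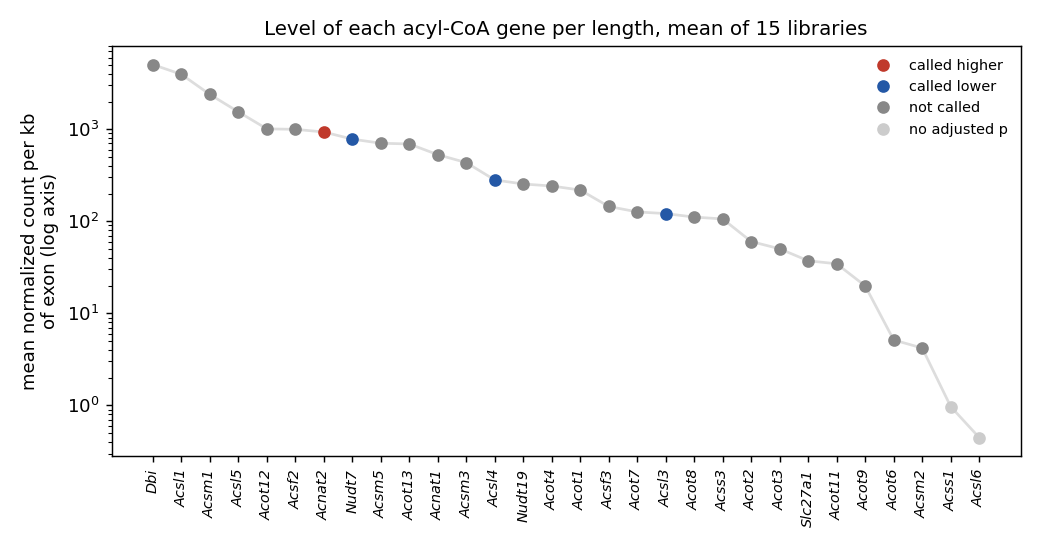
Mean normalized count per kb of exon (all annotated transcripts merged) over 15 libraries (log axis) for each of the 30 acyl-CoA genes with a row, in falling order and coloured by call. The called genes lie in the middle of the order, from Acnat2 at 932.5 to Acsl3 at 121.1, below the 5 genes at 1000 or more.

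**Figure D4:**
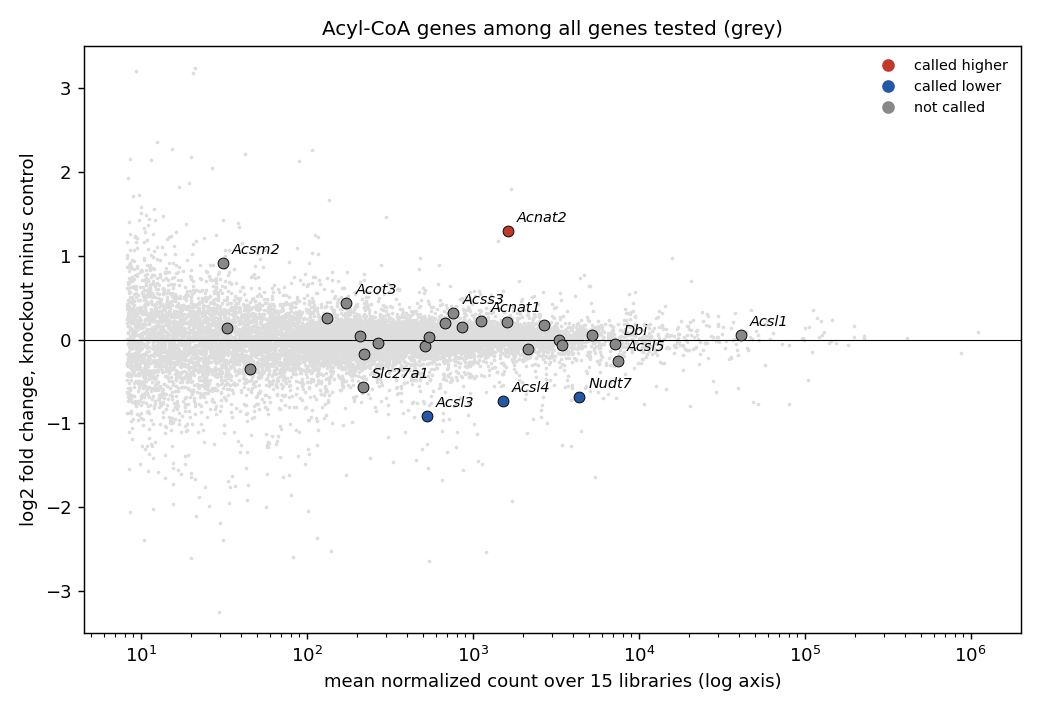
Log2 fold change (knockout minus control, fasted livers) against mean normalized count (log axis) for all tested genes in grey, 7 of them beyond the axis limits of 3.5, with the 28 tested acyl-CoA genes marked and some of them named. Acnat2 lies far above the band of genes of like mean and Acsl3, Acsl4 and Nudt7 below it, while Acsm2 lies at the upper edge of the wider band at low means.

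The precision of the table differs between genes. A call needed an estimate about 3.27 times its SE. This corresponds to 0.21 on the log2 scale for Acsf2 and 0.24 for Nudt19, but 2.09 for Acot3 and 2.28 for Acot11. Of the 24 tested genes that were not called, 14 had a 95% interval wholly within 0.5 of 0 and 20 within 1. For the other 4 (Acot3, Acot11, Acsm2 and Slc27a1) the interval held changes larger than 1 on the log2 scale.

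Genes around this group were taken in 5 further lists, also chosen with earlier results of these data known. Among 14 tested further members of the same families, 2 fell and 0 rose (14.3% called, beside 2.19% of all tested genes): Baat and Acss2, the cytosolic acetyl-CoA synthetase, at -0.52 ± 0.15 (SE), adjusted p 0.0288, in the authors' deposited table (DESeq2). Aacs, the acetoacetyl-CoA synthetase, had an estimate of -0.93 ± 0.29 (SE) and did not pass, at an adjusted p of 0.0649 in the authors' deposited table (DESeq2); it was named after its value was seen. The most abundant, Scp2 (a peroxisomal thiolase and lipid carrier) and Slc27a2 (a very-long-chain synthetase), stood at 0.03 ± 0.13 and -0.23 ± 0.10 (SE) and were not called in the authors' deposited table.

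Coenzyme A synthesis and transport gave 0 calls among 13 tested genes by the authors' DESeq2 test, with 1 at an unadjusted p under 0.05. In the authors' deposited table their estimates lay between -0.42 and 0.13, and Pank1, a pantothenate kinase, stood at 0.06 ± 0.10 (SE). Acyl transfer to carnitine or glycine and transport across membranes gave 0 calls among 15, also with 1 at an unadjusted p under 0.05 by that test. Abcd3, the peroxisomal importer of acyl-CoA, and Cpt1a, which commits fatty acids to mitochondrial oxidation, had estimates of -0.01 ± 0.11 and -0.09 ± 0.16 (SE) there (authors' deposited table).

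In peroxisomal oxidation 1 of 16 tested genes fell and 0 rose (6.25% called, beside 2.19% of all tested genes). It was Decr2, the peroxisomal dienoyl-CoA reductase, at -0.31 ± 0.09 (SE), adjusted p 0.0223, in the authors' deposited table (DESeq2). Catalase (Cat), which breaks down hydrogen peroxide, had an estimate of 0.01 ± 0.04 (SE) in the authors' deposited table. Of PPARalpha and 23 of its known targets, 1 fell and 0 rose (4.17% called, beside 2.19% of all tested genes). It was the fatty acid binding gene Fabp1, at -0.50 ± 0.14 (SE) in the authors' deposited table. Fgf21, a fasting hormone of the liver named after its value was seen, had the largest estimate of the list. It stood at 1.10 ± 0.34 (SE) at a mean of 86.6, with an adjusted p of 0.0505 (authors' deposited table, DESeq2), just outside the threshold. The authors' deposited table gives Cyp4a14, a fatty acid hydroxylase, an estimate of -0.75 ± 0.30 (SE) that was not called. Its relatives Cyp4a10, Cyp4a31 and Cyp4a32 stood at -0.58 ± 0.26, -0.64 ± 0.22 and -0.55 ± 0.36 (SE) there, also not called. The PPARalpha list held 11 positive and 13 negative estimates. By the authors' DESeq2 test 3 of 16 peroxisomal and 6 of 24 PPARalpha genes had an unadjusted p under 0.05, beside 11.4% of all tested genes. The medians of these 5 lists, in the order given, were -0.06, 0.06, 0.03, -0.04 and -0.03, beside 0.01 for all tested genes.

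**Figure D5:**
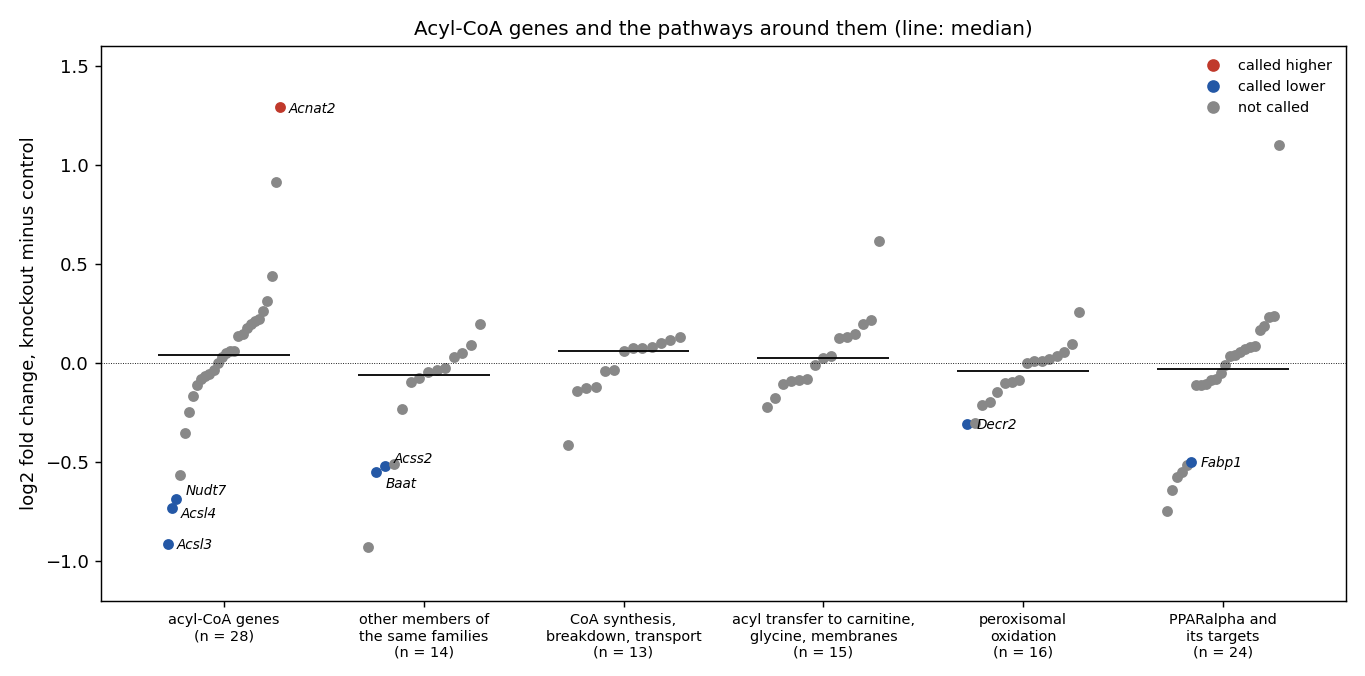
Log2 fold change (knockout minus control, fasted livers) of each tested gene, sorted within each list, for the 28 acyl-CoA genes and 5 surrounding lists; the horizontal line is the median and called genes are named. Medians lie between -0.06 and 0.06, and the called genes are 4 of 28, 2 of 14, 0 of 13, 0 of 15, 1 of 16 and 1 of 24.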

How the data were processed

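RNA of 15 mouse livers was sequenced. Per the labels' protocols, total RNA was purified with TRIzol and RNeasy, and KAPA's stranded kit served for the libraries. FastQC, STAR 2.6.0c, mm10 and DESeq2 were named by the authors (per the submitters' processing notes). Read counter, strand setting, annotation and library totals were not given in the sources used here. One table of one comparison was analysed. Per the file headers, the authors' mean is a signal of counts divided by size factors and averaged, and the deposited effect and its SE are log2 values. The Wald score the authors deposited equals effect over SE, the deposited p-values are 2-sided normal p of it, and the adjusted ones are Benjamini-Hochberg values over 13335 genes. Nothing was refitted, and missing values stayed missing.

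Members and gene lists were chosen with earlier results of these data known. The contrast was worked out by fitting single reads with a penalised negative binomial model. Intervals are the estimate ± 1.96 SE. Positions, exon lengths and coding sequences are from GENCODE M21 (GRCm38, the assembly of mm10), and promoters from RefSeq (GRCm38.p6); all 30 identifiers matched. Full values were given for members with a p under 0.05 and the 6 of highest mean, and of other lists for called genes and up to 2 of highest mean, some of which are not reported here. Work used Python 3.11.15, pandas 2.3.3, SciPy 1.17.1 and Biopython 1.88, and the adjustment was tested on simulated data. The labels do not say whether the animals of a group shared a cage or litter, and the p-values treat the livers as independent. In the reading taken, the model held all 15 libraries, so refed livers also enter the SE of the fasted comparison. Sample titles begin with a number that all animals of a group share and that differs between groups. What that number stands for is not given, and in the fasted comparison it cannot be told apart from genotype.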

Additional observations from a re-analysis of the deposited data

How the results depend on the processing

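All 7 alternatives were planned. Acnat2 was called higher and Acsl3 and Acsl4 lower in each of them, with adjusted p up to 0.0357, the value of all 3 with the t distribution. Nudt7 lost its call when the adjustment took in every gene with a p (0.0556), with the t distribution (0.298) and at a threshold of 0.01, which left 2 members called lower. Over all genes these settings gave 223, 38 and 167 calls in place of 292. At a threshold of 0.1 (434 calls over all genes) 2 members were called higher, Acsm2 being added. Members called were 1 higher and 3 lower with the adjustment limited to means of 10 or 100 and above and with centring on genes of similar mean (297, 251 and 308 calls). Only centring alters the estimates themselves, by at most 0.0392 on the log2 scale, and it changed the sign of none of the 14 members given in full. The PPARalpha list went from 1 call to 0 when every gene with a p was included in the adjustment, with the t distribution and the threshold of 0.01. It went to 2, with Fabp1 lower and Fgf21 higher, under a minimum mean of 10, centring and the threshold of 0.1. The peroxisomal list went from 1 call to 0 with the t distribution and the threshold of 0.01. The list of further family members went from 2 calls to 1 with every gene adjusted and at 0.01 (Acss2 lost), to 0 with the t distribution (Acss2 0.298, Baat 0.0507) and to 3 at 0.1 (Aacs added, lower). The cause was not tested beyond the settings themselves.

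No symbol of the members or pathway lists stood on more than 1 row, so another row could not be tried. No paired analysis was possible because the table holds no values per sample; leaving out replicates could not be run for the same reason. Low mean counts limit what can be said of Acsl6, Acss1, Acsm2 and Acot6, and library depth was not examined.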
